A study of Mus musculus with 10 samples.

Results

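Intercalated cells are the acid-base cells of the renal collecting system, and 10 genes used as their markers were read in every kidney. The genes are Slc4a1, Aqp6 and Rhcg of the type A cell, Slc26a4 of the type B cell, the transcription factor Foxi1, and the proton pump subunits Atp6v1b1, Atp6v1g3, Atp6v1c2, Atp6v0a4 and Atp6v0d2. They were chosen by symbol, and all 10 were found among the 43629 genes of the count table. The 10 libraries came from kidneys of UM-HET3 male mice aged 4 months, a genetically heterogeneous stock, with 1 library per kidney. The mice of the 6 control kidneys ate Purina 5LG6 diet. Those of the 4 other kidneys ate the same diet with 10 ppm rilmenidine for 1 month from 3 months of age. Rilmenidine is an antihypertensive agonist of imidazoline receptors. The labels number the kidneys of each group but do not say that every kidney came from its own mouse, so p-values measure the spread between these samples. The comparison of the groups asks how the kidney transcriptome responds to the drug. None of the 10 genes differed between the groups past an adjusted p of 0.05. The coefficient of variation between kidneys was larger in the rilmenidine group for 5 of the 9 genes tested and smaller for 4.

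Intercalated cells sit singly among the principal cells of the connecting tubule and collecting duct. The type A cell secretes protons into the urine through a vacuolar-type proton pump at its apical membrane and returns bicarbonate to the blood through the anion exchanger AE1, the product of Slc4a1. The type B cell has the opposite polarity and secretes bicarbonate in exchange for chloride through pendrin, the product of Slc26a4. The pump has a soluble V1 part that hydrolyses ATP and a membrane-bound V0 part that carries the protons, and several subunits have an isoform that is enriched in these cells beside one that is found in most cells. Foxi1 is the forkhead factor on which the differentiation of intercalated cells depends. Inherited loss of ATP6V1B1, ATP6V0A4 or SLC4A1 in humans causes distal renal tubular acidosis.

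The promoter windows of these genes are shown because Foxi1 binds a forkhead motif. RefSeq windows (GRCm38.p6) were matched for 8 of the 10 members, each read over the 250 bases before the annotated start. The search used the strict word GTAAACA and the 8 words of the forkhead core, on both strands. A core word has A or G, then C or T, then AAA, then C or T, and ends in A, so the strict word is 1 of the 8. A word of the core was present in 4 of the 8 member windows, against 24.9% of all 32851 windows. The strict word was present in 1 of the 8, against 3.17% of all windows. The windows of Atp6v1b1, Atp6v1g3 and Slc26a4, 2 pump genes and the type B exchanger, each held a word, shown in capitals as it reads 5′ to 3′ on the gene's own strand.
Atp6v1b1 (chr6:83742767-83743016, plus strand): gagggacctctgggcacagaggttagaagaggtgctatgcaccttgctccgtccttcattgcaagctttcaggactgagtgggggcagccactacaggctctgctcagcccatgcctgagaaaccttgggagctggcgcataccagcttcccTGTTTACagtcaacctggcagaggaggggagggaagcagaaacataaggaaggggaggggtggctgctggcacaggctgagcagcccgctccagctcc
Atp6v1g3 (chr1:138273488-138273737, plus strand): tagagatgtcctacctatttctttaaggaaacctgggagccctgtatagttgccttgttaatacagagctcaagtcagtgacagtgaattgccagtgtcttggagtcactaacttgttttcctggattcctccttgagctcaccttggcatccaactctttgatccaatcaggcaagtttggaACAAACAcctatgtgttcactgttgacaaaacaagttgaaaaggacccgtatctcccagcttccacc
Slc26a4 (chr12:31559985-31560234, minus strand): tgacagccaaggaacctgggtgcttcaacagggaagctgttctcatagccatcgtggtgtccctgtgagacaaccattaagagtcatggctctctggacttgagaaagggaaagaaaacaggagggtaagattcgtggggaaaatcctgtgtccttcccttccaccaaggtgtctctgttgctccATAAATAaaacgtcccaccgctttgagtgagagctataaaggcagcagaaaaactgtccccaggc
The word began 98 bases before the start in Atp6v1b1, where it is the strict word on the opposite strand, 67 bases before it in Atp6v1g3 and 65 bases before it in Slc26a4. Atp6v1c2 held GCAAATA 71 bases before its RefSeq start, and the windows of Atp6v0a4, Rhcg, Foxi1 and Aqp6 held none. The window of Atp6v1c2, 17324731 to 17324980, lies inside the GENCODE M21 span of the gene, 17284721 to 17329359 on the minus strand. That of Atp6v0a4 lies in an annotated exon of D630045J12Rik. The window of Atp6v1b1 ends at 83743016, past the GENCODE start of the gene at 83742990. That of Aqp6 ends at 99601199, short of the GENCODE start at 99601400, so the bases next to that start were not searched. On the minus strand the window of Slc26a4 stops at 31559985, where the GENCODE span of the gene ends at 31559969. All distances given are to the RefSeq start. These matches describe the letters of the windows only.

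The libraries held 863605 to 3232063 counts each, with the 2 highest totals in rilmenidine kidneys 3 and 4. The smallest rilmenidine library, with 1813465 counts, was deeper than controls 1 to 5, which had 1787638 or fewer. Control 6 had 2559118. Depth thus differed between the groups, and a fit with library size as a covariate is given in the closing section. The filter required 6 reads or more in 7 of the 10 libraries, which 10055 genes met, and those were tested. The proximal tubule transporter Slc34a1 had 5478 to 20224 counts and the thick ascending limb gene Umod 1293 to 6361 counts, whereas the liver transcript Alb had 0 to 20 counts, although the extraction text of the labels speaks of liver. The other liver genes read had at most 58 counts, except Cyp2e1, which mouse kidney also expresses, with 1477 to 8318. The summed level of olfactory and vomeronasal receptor genes was 10 CPM or more in 7 of the 10 libraries, where CPM is the RLE-normalized count put on the same total for all libraries. It was 4.55 to 8.97 CPM in control 6 and rilmenidine 3 and 4. The nuclear RNA Malat1 had 284 to 2100 CPM in control kidneys and 306 to 393 CPM in rilmenidine kidneys. In bulk tissue, fewer intercalated cells and less RNA per cell cannot be told apart.

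Over the whole table, the quasi-likelihood test of edgeR (Benjamini-Hochberg adjustment) called 0 of 10055 genes (0%) at an adjusted p of 0.05, and 0 of the 9 members tested. At an unadjusted p under 0.05 the test gave 1061 genes (10.6%) and 0 members. The groups did not overlap in CPM for 1.67% of the genes tested, and they overlapped for all 10 members. The DESeq2 Wald test called 60 genes and the edgeR likelihood ratio test 44 genes, in each case with 0 members, though DESeq2 gave no adjusted p for 3 of them. Of the 9 members, 5 had a log2 fold change above 0, against 50.3% of all genes, and 4 below 0, against 49.7%. The median was 0.11 over the members and 0.0021 over all genes.

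The type B cell was represented by Slc26a4 (ENSMUSG00000020651, chromosome 12 of GRCm38, 31519827 to 31559969), which encodes pendrin. Control kidneys 1 to 6 had 127, 122, 123, 140, 111 and 136 CPM. Rilmenidine kidneys 1 to 4 had 162, 102, 70.3 and 108 CPM. Rilmenidine 1 thus lay above every control kidney and the 3 other treated kidneys lay below every control kidney. The mean was 126 ± 10.3 (SD, n = 6) CPM in controls and 111 ± 38.2 (SD, n = 4) CPM with the drug. The coefficient of variation was 8.18% in controls, where counting alone gives 7.50%, and 34.5% in the rilmenidine group, where counting gives 6.51%. The difference of these spreads was not tested. On the log2 scale the difference was −0.20 (standard error 0.18), with a 95% interval from 0.672-fold to 1.13-fold and an adjusted p of 0.745 in the quasi-likelihood test. Without rilmenidine 1 it was −0.43 (unadjusted p = 0.0135, adjusted p = 0.485), in a fit where 8.14% of all genes, and 5.12% with a lower mean, had an unadjusted p under 0.05. Without rilmenidine 3 it was −0.028 (adjusted p = 0.981), so the size of the difference rested on which of these kidneys was included.

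**Figure D1:**
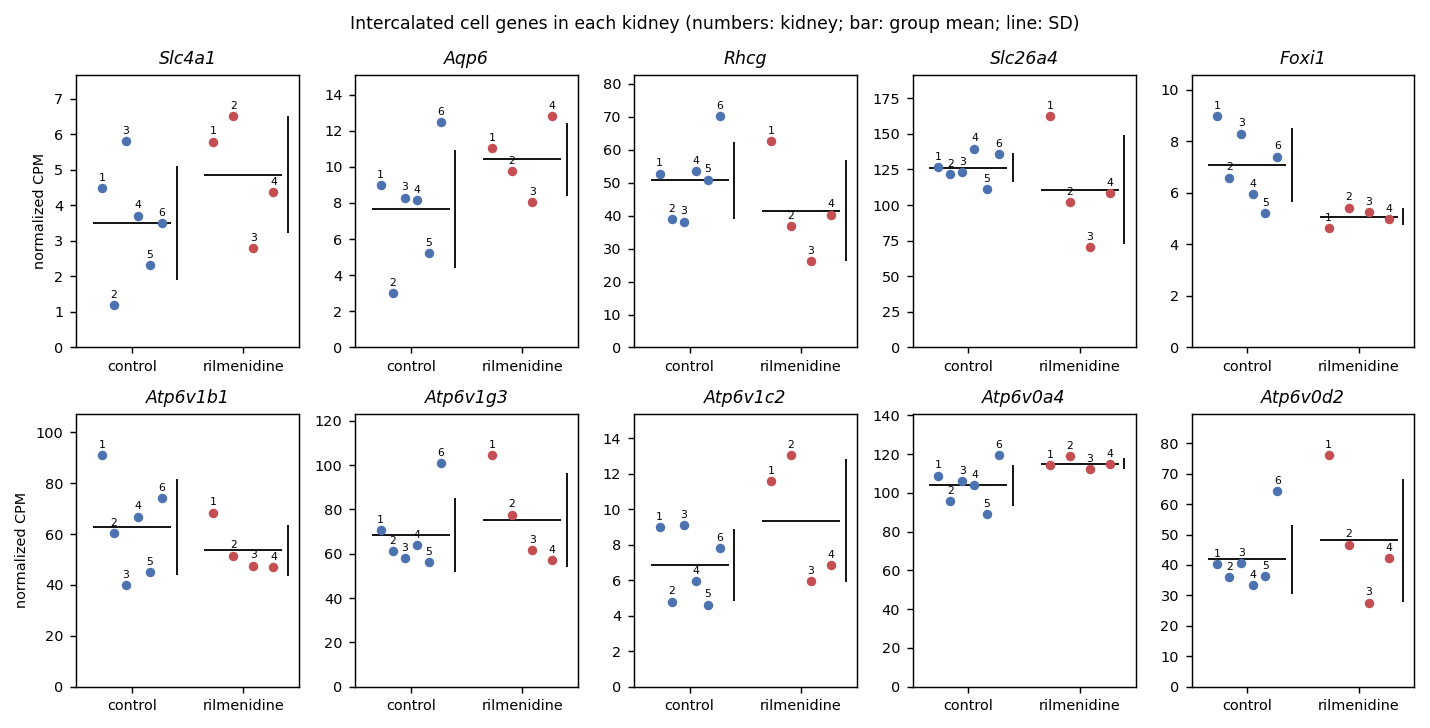
Normalized CPM (vertical axis, from 0) of the 10 intercalated cell genes in 6 control (blue) and 4 rilmenidine (red) kidneys, with the kidney's number above each point, the group mean as a bar and the SD as a line. For Slc26a4, rilmenidine 1 at 162 CPM stands above all controls and the 3 other treated kidneys, 70.3 to 108 CPM, stand below them.

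Among the genes of the type A cell, Rhcg (ENSMUSG00000030549, chromosome 7, 79593363 to 79617657) encodes an ammonia transporter that principal cells express as well. Control kidneys 1 to 6 had 52.8, 39.0, 38.2, 53.5, 50.9 and 70.2 CPM. Rilmenidine kidneys 1 to 4 had 62.6, 36.9, 26.2 and 40.3 CPM, so that rilmenidine 2 and 3 were lower than every control. The order of the treated kidneys was similar to that of Slc26a4, with rilmenidine 1 highest and rilmenidine 3 lowest. The means were 50.7 ± 11.7 (SD, n = 6) and 41.5 ± 15.3 (SD, n = 4) CPM. The log2 fold change came to −0.32 (standard error 0.22, adjusted p = 0.645 in the quasi-likelihood test), and −0.57 without rilmenidine 1 (unadjusted p = 0.0160, adjusted p = 0.509). It was −0.14 without rilmenidine 3. In the fit without rilmenidine 1, 2 of the 9 members tested had an unadjusted p under 0.05, Slc26a4 and Rhcg, both lower. Over all genes the share in that fit was 8.14%, and 5.12% with a lower mean.

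Aqp6 (ENSMUSG00000043144, chromosome 15, 99601400 to 99605477), a water and anion channel of intracellular vesicles in type A cells, was a low gene, with 5 to 41 counts per library. Its CPM were 8.98, 3.00, 8.30, 8.17, 5.21 and 12.5 in control kidneys 1 to 6. They were 11.02, 9.77, 8.05 and 12.8 in rilmenidine kidneys 1 to 4. Control 2 was the lowest and rilmenidine 4 the highest, and 3 of the 4 treated kidneys were above the control median. The fitted log2 fold change, 0.42 (standard error 0.33), had an interval from 0.826-fold to 2.18-fold and an adjusted p of 0.691 in the quasi-likelihood test. It was 0.25 to 0.68 with single kidneys left out.

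Slc4a1 (ENSMUSG00000006574, chromosome 11, 102348824 to 102366203) had 4, 2, 7, 5, 4 and 9 counts in control kidneys 1 to 6. It had 10, 12, 8 and 14 counts in rilmenidine kidneys 1 to 4. With 6 libraries at 6 reads or more, where 7 were needed, it was not tested with the other members. The CPM were 3.51 ± 1.62 (SD, n = 6) and 4.87 ± 1.64 (SD, n = 4), and the groups overlapped. In a fit without the filter, on every gene counted at all, its fitted log2 change was 0.48 (standard error 0.56, adjusted p = 0.781 in the quasi-likelihood test). Red blood cell precursors express Slc4a1 too. The globins Hba-a1, Hba-a2, Hbb-bs and Hbb-bt were the 4 of 10 red cell genes that were tested, and the summed level of the list ranged from 983 to 8811 CPM in controls and from 2875 to 4131 CPM with rilmenidine. The precursor gene Alas2 reached no more than 2 counts per library, with 0 in 8 of the 10. Over the 10 kidneys the mean log2 level of the globins and Slc4a1 gave Pearson's r = −0.511 (permutation p = 0.131, adjusted p = 0.295) and Spearman's rho = −0.212 (permutation p = 0.561, adjusted p = 0.561). Without the 2 kidneys farthest from the median globin level r was 0.485 (exact permutation p = 0.228), so the negative value rested on those kidneys. After subtracting the group means r over all 10 was −0.684 (permutation p = 0.0295, adjusted p = 0.133). Among the 7 libraries of at least 10 receptor CPM it was −0.511 (exact permutation p = 0.254).

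Foxi1 (ENSMUSG00000047861, chromosome 11, 34204338 to 34208089), the regulator of the cell type, had 8 to 19 counts per library. Its CPM were 8.98, 6.59, 8.30, 5.94, 5.21 and 7.41 in control kidneys 1 to 6 and 4.64, 5.43, 5.25 and 5.00 in rilmenidine kidneys 1 to 4. All 4 treated kidneys were below the control median of 7.0 CPM, and 2 of them were below every control. The log2 fold change of −0.45 (standard error 0.29) was the most negative of the members, with an interval from 0.479-fold to 1.12-fold and an adjusted p of 0.613 in the quasi-likelihood test. It was −0.52 to −0.39 with single kidneys left out. Counting alone gives coefficients of variation of 32.3% and 29.6% at these counts, above the 20.2% and 6.75% found in controls and treated kidneys, so finer differences between these animals were not detectable at this depth.

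**Figure D2:**
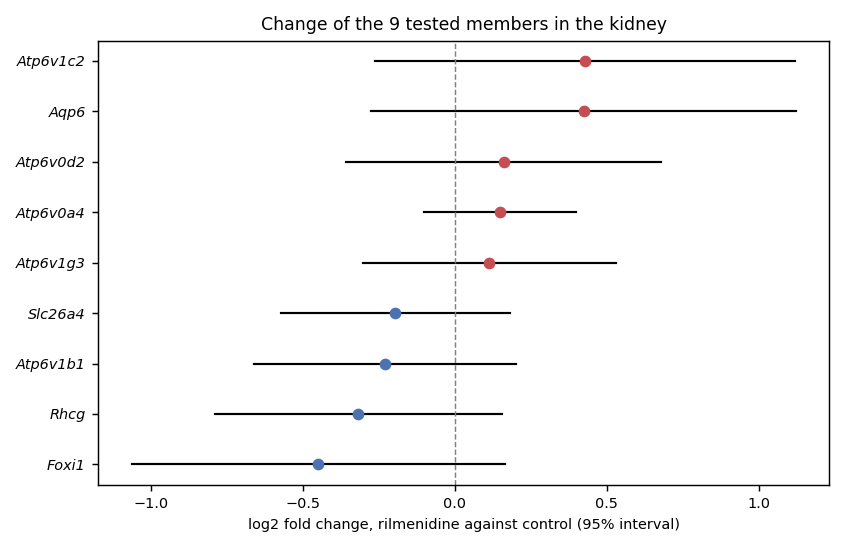
Log2 fold change of rilmenidine against control (horizontal axis) for the 9 members tested, with 95% intervals from the edgeR quasi-likelihood fit of 6 control and 4 rilmenidine kidneys. All 9 intervals include 0, from Foxi1 at −0.45 to Atp6v1c2 at 0.43, and that of Atp6v0a4 is the shortest.

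Of the V1 subunits, Atp6v1b1 (ENSMUSG00000006269, chromosome 6, 83742990 to 83758855) encodes the kidney and inner ear isoform of the nucleotide-binding B subunit. Control kidneys 1 to 6 had 90.9, 60.5, 39.8, 66.9, 45.1 and 74.1 CPM. Rilmenidine kidneys had 68.4, 51.6, 47.6 and 47.2 CPM, all inside the control range. A log2 fold change of −0.23 was fitted (standard error 0.20, adjusted p = 0.740 in the quasi-likelihood test), and it was −0.11 without control 1 and −0.36 without rilmenidine 1. Atp6v1g3 (ENSMUSG00000026394, chromosome 1, 138273738 to 138289462), a kidney-enriched isoform of the stalk subunit G, had 70.7, 61.1, 58.1, 63.9, 56.1 and 101 CPM in controls. It had 104, 77.7, 61.6 and 57.1 CPM in treated kidneys, with control 6 and rilmenidine 1 standing above the rest. The fit gave 0.11 on the log2 scale (standard error 0.20, adjusted p = 0.898 in the quasi-likelihood test), and −0.083 without rilmenidine 1. Atp6v1c2 (ENSMUSG00000020566, chromosome 12, 17284721 to 17329359), a tissue-restricted isoform of subunit C, had 8 to 24 counts per library. It had 4.63 to 9.13 CPM in controls, with a median of 6.87, and 11.6, 13.0, 5.95 and 6.87 CPM in rilmenidine kidneys 1 to 4. Rilmenidine 1 and 2 were above every control, while 3 and 4 were within the control range. For Atp6v1c2 the log2 fold change reached 0.43 (standard error 0.33, adjusted p = 0.683 in the quasi-likelihood test), and 0.23 without rilmenidine 2. Atp6v1c2 shares 50 exonic bases with Pdia6 on the opposite strand. The strand setting of the counting and its handling of reads over shared bases are not given, so the effect on the count of Atp6v1c2 is not known.

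Of the V0 subunits, Atp6v0a4 (ENSMUSG00000038600, chromosome 6, 38048483 to 38124586) encodes the a4 isoform of the membrane subunit that lines the proton path. Control kidneys had 109, 95.9, 106, 104, 89.1 and 119 CPM. Rilmenidine kidneys had 114, 119, 112 and 115 CPM, within the control range and above its median of 105 CPM in all 4. Its coefficient of variation was 10.1% in controls and, at 2.42%, the lowest of the members in treated kidneys, where counting alone gives 8.27% and 6.24%. The fitted difference was 0.15 on the log2 scale (standard error 0.12, adjusted p = 0.702 in the quasi-likelihood test), and its interval from 0.931-fold to 1.32-fold was the narrowest of the members. D630045J12Rik shares 259 exonic bases with it on the same strand and Tmem213 62 bases on the opposite one, so its reads could not be separated from theirs there. Atp6v0d2 (ENSMUSG00000028238, chromosome 4, 19876841 to 19922605), an isoform of the d subunit at the base of the central stalk, varied far more. Controls had 40.4, 36.0, 40.7, 33.4, 36.4 and 64.3 CPM and rilmenidine kidneys 76.0, 46.7, 27.6 and 42.2 CPM, so that rilmenidine 1 was above and rilmenidine 3 below every control. The log2 fold change of 0.16 (standard error 0.24, adjusted p = 0.875 in the quasi-likelihood test) became −0.14 without rilmenidine 1 and 0.36 without rilmenidine 3.

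Read kidney by kidney, the members shared part of their variation. In control 6 all 9 members tested were above their own mean over the 10 kidneys, and in rilmenidine 1 and control 1 this held for 8 of the 9. In rilmenidine 3 and control 5 it held for 1 of the 9, and in rilmenidine 4 for 2. Rilmenidine 1 was the highest of all kidneys for Slc26a4, Atp6v1g3 and Atp6v0d2, and rilmenidine 3 the lowest for Slc26a4, Rhcg and Atp6v0d2. Foxi1 was the exception in rilmenidine 1, where it had the lowest value of all kidneys. The summed level of the 10 members was 522, 430, 437, 485, 406 and 596 CPM in control kidneys 1 to 6 and 621, 469, 368 and 439 CPM in rilmenidine kidneys 1 to 4. Both the highest and the lowest sum were thus found in treated animals.

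**Figure D3:**
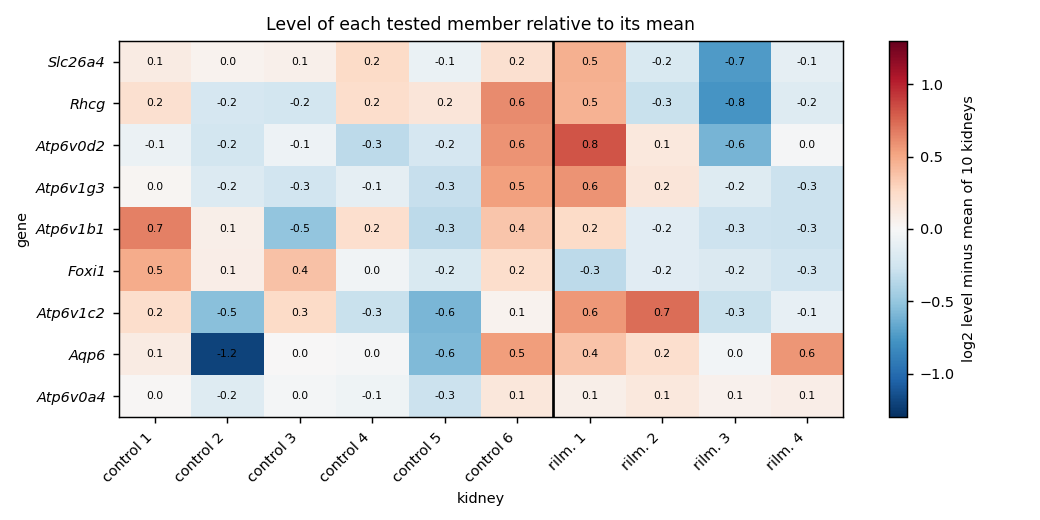
Log2 level of each tested member in each kidney minus its mean over the 10 kidneys (colour and printed value), controls left of the line and rilmenidine right of it. Control 6 and rilmenidine 1 are mostly red, rilmenidine 3 is blue for Slc26a4, Rhcg and Atp6v0d2, and Atp6v0a4 stays near 0 in every kidney.

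The relation of each member to Atp6v1b1 was tested over the 10 kidneys, in a family of 9 relations that includes the one of Slc4a1 with the globins. The strongest by Pearson's coefficient was Rhcg, with r = 0.641 (permutation p = 0.0458, adjusted p = 0.295) and rho = 0.648 (permutation p = 0.0489, adjusted p = 0.220). Atp6v1g3 gave r = 0.598 (permutation p = 0.0727, adjusted p = 0.295) and rho = 0.794 (permutation p = 0.00882, adjusted p = 0.0794). Slc26a4 gave r = 0.533 (permutation p = 0.107, adjusted p = 0.295) and rho = 0.600 (permutation p = 0.0735, adjusted p = 0.221). None passed after adjustment. Without the 2 kidneys farthest from the median of Atp6v1b1 the r of these 3 genes was 0.705, 0.735 and 0.760, and within the 7 libraries with at least 10 receptor CPM it was 0.567, 0.459 and 0.490. No value is given for the 3 remaining libraries, which are too few for one to be informative. After subtracting the group means it was 0.606, 0.685 and 0.485, with adjusted permutation p of 0.133 to 0.287. The r of the 5 other members was 0.154 to 0.375, and 0.244 to 0.476 after subtracting the group means. As a description, the 36 pairs of tested members had a median r of 0.43, from −0.078 to 0.866, and 31 were above 0. The closest pairs were Atp6v1g3 with Atp6v0d2 (0.866), Rhcg with Slc26a4 (0.856) and Aqp6 with Atp6v0a4 (0.841), and all 5 pairs below 0 lay between Foxi1 or Slc26a4 and other members. The values of a pair share a library, its depth and its normalization.

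Within a kidney, the level of a pump isoform enriched in intercalated cells can be set against that of its widely expressed paralog. This ratio depends on the scaling of the library only through the prior count. For the B subunit the log2 ratio of Atp6v1b1 to Atp6v1b2 was −3.90 ± 0.38 (SD, n = 6) in controls and −4.13 ± 0.26 (SD, n = 4) with rilmenidine. The difference of −0.22 was within the spread of the kidneys (two-sided exact permutation p = 0.348, adjusted p = 0.786 over the 5 pairs), and it was −0.089 without control 1. The differences for Atp6v1g3 to Atp6v1g1, Atp6v1c2 to Atp6v1c1, Atp6v0a4 to Atp6v0a1 and Atp6v0d2 to Atp6v0d1 were −0.073, 0.15, −0.17 and 0.013. Their exact permutation p was 0.629, 0.629, 0.352 and 0.962, and 0.786 to 0.962 after adjustment. The smallest p that the 210 splits of the kidneys allow is 0.00476. In controls the mean log2 ratio to the paralog was 0.51 for Atp6v0a4 and −2.37, −3.56 and −1.05 for Atp6v1g3, Atp6v1c2 and Atp6v0d2. Atp6v0a4 was thus above its paralog, and which cells gave its reads was not tested. The paralogs Atp6v1b2, Atp6v1g1, Atp6v1c1, Atp6v0a1 and Atp6v0d1 had log2 fold changes of 0.03, 0.18, 0.22, 0.32 and 0.08, with adjusted p from 0.541 to 0.965 in the quasi-likelihood test.

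Genes of the 2 cell types were compared as the ratio of Aqp6 and of Rhcg to Slc26a4. Principal cells express Rhcg as well and Slc4a1 was not tested, so these ratios compare genes and not cell numbers. The log2 ratio of Aqp6 to Slc26a4 was −3.67, −4.92, −3.73, −3.93, −4.16 and −3.34 in control kidneys 1 to 6. It was −3.76, −3.25, −2.97 and −2.98 in rilmenidine kidneys 1 to 4, of which 3 were above every control. The mean difference was 0.72 on the log2 scale, toward the type A gene in treated kidneys, and did not pass the test (two-sided exact permutation p = 0.0524, adjusted p = 0.105 over 2 pairs). It was 0.53 to 0.89 with single kidneys left out, with adjusted exact permutation p from 0.0714 to 0.286, and 0.58 in the 7 libraries of at least 10 receptor CPM (exact permutation p = 0.286). Rhcg to Slc26a4 had a difference of −0.074, with −1.32 ± 0.28 (SD, n = 6) in controls and −1.40 ± 0.034 (SD, n = 4) in treated kidneys (exact permutation p = 0.629, adjusted p = 0.629). In the 4 treated kidneys this ratio spanned −1.44 to −1.36, although the level of each gene varied over 2-fold among them.

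**Figure D4:**
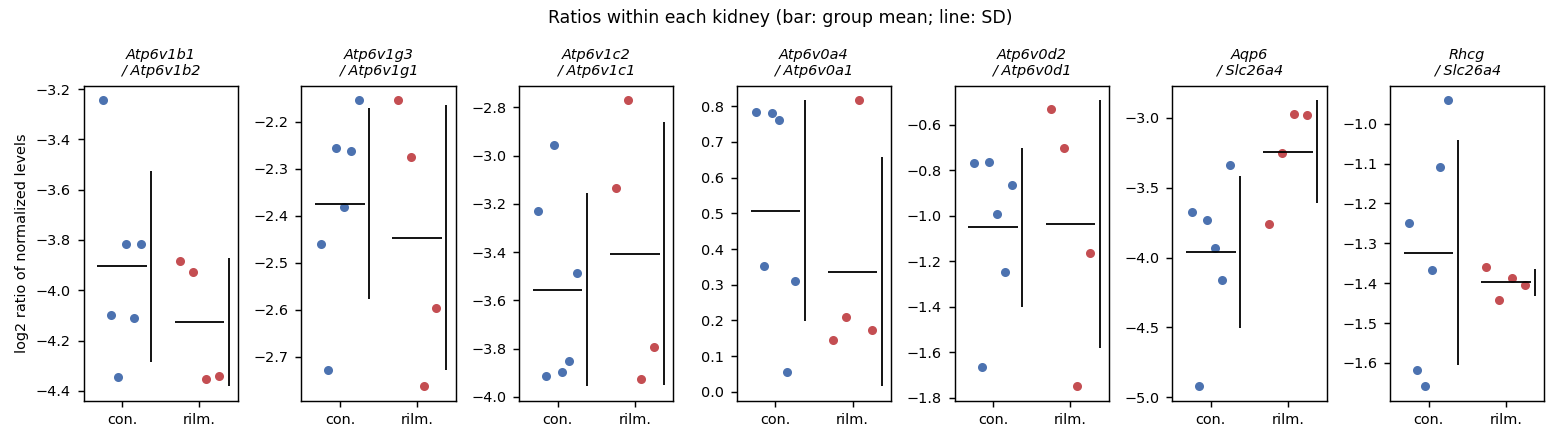
Log2 ratio of normalized levels (vertical axis, a scale per panel) in control (blue) and rilmenidine (red) kidneys (group means as bars, SD as lines). The ratios are of 5 pump genes enriched in intercalated cells to their widely expressed paralogs, and of Aqp6 and Rhcg to Slc26a4. For Aqp6 to Slc26a4, 3 of the 4 treated kidneys lie above all controls, and for Rhcg to Slc26a4 the treated kidneys lie between −1.44 and −1.36.

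Of 30 other genes of intercalated cells and acid-base transport, 19 were tested and 0 passed the adjusted threshold. At an unadjusted p under 0.05, 3 were lower with the drug and 0 higher, where 6.13% of all genes tested were lower and 4.43% higher. The 3 were Avpr1a, a vasopressin receptor, at 11.4 ± 2.66 (SD, n = 6) against 6.30 ± 1.51 (SD, n = 4) CPM, Tfcp2l1, a transcription factor of the collecting duct, at 282 ± 45.2 (SD, n = 6) against 215 ± 23.7 (SD, n = 4) CPM, and Oxgr1, the 2-oxoglutarate receptor of type B cells, at 24.5 ± 9.68 (SD, n = 6) against 16.1 ± 3.63 (SD, n = 4) CPM. Their log2 fold changes were −0.81, −0.39 and −0.65 with adjusted p of 0.321, 0.337 and 0.418 in the quasi-likelihood test. Only the groups of Avpr1a did not overlap. The chloride channel subunit gene Bsnd and Tmem213 had the smallest p among those with higher means, with log2 fold changes of 0.42 and 0.19 (adjusted p = 0.639 and 0.813 in the quasi-likelihood test). The median of the 19 was −0.044. The carbonic anhydrase genes Car2 and Car12 had log2 fold changes of −0.015 and 0.04. Slc4a9, a type B anion exchanger, had 2 to 13 counts and was not tested. Of 17 widely expressed pump subunits and accessory proteins 16 were tested. A log2 fold change above 0 was found for 13 of them, against 50.3% of all genes. Their median was 0.07, against 0.0021 over all genes. An unadjusted p under 0.05 was found for 1, where 4.43% of all genes were higher at that level. It was Atp6v0e at 0.30 (adjusted p = 0.399 in the quasi-likelihood test). The other genes that the rule names on this list are Atp6v1f, at 0.29 (adjusted p = 0.479), and Atp6v0b and Atp6v0a2, at −0.16 and −0.11 (adjusted p = 0.695 and 0.927).

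Genes of neighbouring cells were read beside these values, and their part in the differences was not tested. The summed level of 12 principal cell genes was 498 to 689 CPM in controls and 642 to 754 CPM in treated kidneys. Of the 10 tested, 0 passed the adjusted threshold, and 3, the water channels Aqp2, Aqp3 and Aqp4, were higher at an unadjusted p under 0.05. Over all genes tested, 4.43% were higher and 6.13% lower at that level. The groups did not overlap for Aqp2, where this held for 1.67% of all genes. The summed level of the members divided by that of the principal cell genes was 0.758 to 1.02 in controls and 0.961, 0.730, 0.507 and 0.583 in rilmenidine kidneys 1 to 4. Without Aqp4, which had 540 and 313 counts in rilmenidine 3 and 4 and 19 to 59 counts elsewhere, the ratio was 0.796 to 1.07 in controls and 0.977, 0.768, 0.686 and 0.670 in treated kidneys. Kcnj1 was the largest term of the principal cell sum, with 178 to 276 CPM in controls and 203 to 246 CPM in treated kidneys. Which cells gave the Kcnj1 reads was not tested, so the ratio compares gene sums and not cells. For distal tubule genes, 2 of 6 tested were lower at an unadjusted p under 0.05, Trpm6 and Slc12a3, and the groups of Trpm6 did not overlap. The median log2 fold change of the 6 was −0.32. Of 4 thick ascending limb genes tested, 1 was higher (Umod) with a median of 0.24. At that level 0 of 8 proximal tubule, 0 of 4 red blood cell, 0 of 4 podocyte, 0 of 5 endothelial, 0 of 4 immune and 0 of 2 liver genes differed, and 0 genes of any list passed the adjusted threshold.

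Within the 7 libraries with at least 10 receptor CPM, 5 control and 2 rilmenidine, 8 of the 9 members had a log2 fold change above 0, against 51.3% of 9796 genes tested. In this fit 3 members had an unadjusted p under 0.05, all with higher means, where 10.6% of all genes did and 4.36% with higher means. They were Atp6v0d2 at 0.72, Atp6v1g3 at 0.56 and Atp6v1c2 at 0.93, with adjusted p of 0.327, 0.331 and 0.412 in the quasi-likelihood test. Slc26a4, Rhcg and Atp6v1b1 changed sign there, to 0.090, 0.089 and 0.0026. These libraries leave out control 6 and rilmenidine 3 and 4, the deepest 3 of the series. Control 6 was the highest control for Atp6v0d2 and Atp6v1g3, at 64.3 and 101 CPM. Of the 2 treated kidneys kept, rilmenidine 1 was the highest of all kidneys for both genes and rilmenidine 2 for Atp6v1c2. With log2 Malat1 as a covariate Atp6v1g3 and Atp6v0d2 changed sign, to −0.15 and −0.10.

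**Figure D5:**
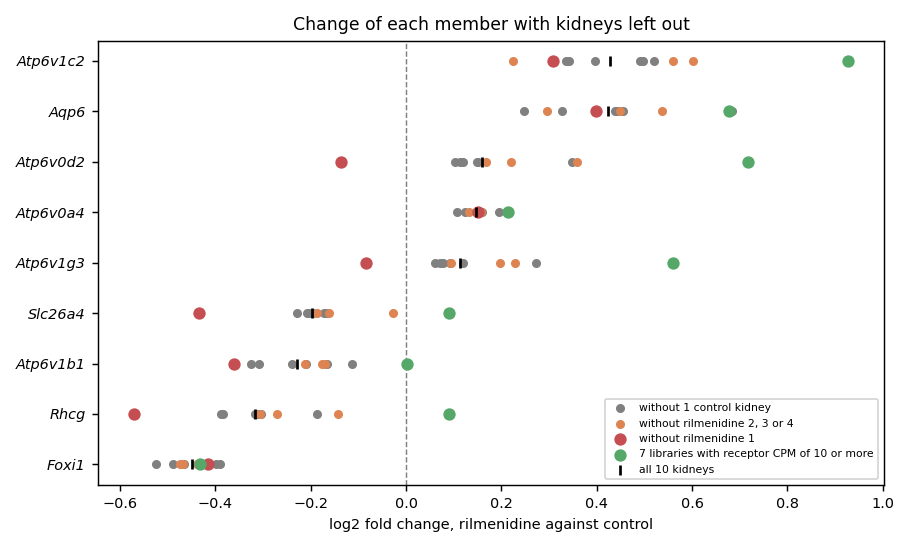
Log2 fold change of rilmenidine against control (horizontal axis) of the 9 tested members in all 10 kidneys (black), without 1 control kidney (grey), without rilmenidine 2, 3 or 4 (orange), without rilmenidine 1 (red) and in the 7 libraries with at least 10 receptor CPM (green). Foxi1 stays between −0.52 and −0.39, while Atp6v0d2 and Atp6v1g3 fall on the other side of 0 without rilmenidine 1.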

How the data were processed

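The 6 control and 4 rilmenidine kidneys were analysed, grouped by their labels. The authors trimmed reads with Trimmomatic 0.32, mapped them with STAR 2.5.2b to mm10, counted them per Ensembl gene with featureCounts 1.5 and deposited the raw counts. The library protocol cited in the labels captures 3′ ends with molecular identifiers. The annotation release, the strand setting and whether identifiers were collapsed are not given in the sources used here, so the tests treat counts as reads. The supplementary methods give more control kidneys than the 6 labelled.

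Genes reaching 6 reads in 7 of the 10 libraries were kept, RLE-normalized and fitted in edgeR 4.0.16 (R 4.3.3) with the quasi-likelihood test, all 10 libraries, no covariates, and Benjamini-Hochberg adjustment over all genes. Symbols came from GENCODE M21 (GRCm38) for 42462 of 43629 identifiers. Log2 levels used a prior count of 2. Single ratios were compared by exact permutation over 210 splits, and correlations by 100000 permutations. DESeq2 1.42.0 and other alternatives are given in the closing section. The gene test was checked on simulated counts. No pair of libraries was a copy of another, with a chi-square per degree of freedom of at least 3.61.

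The members, gene lists, tests and alternatives were chosen with earlier results of these data known. Named genes were the members, the 5 pump paralogs, on each other list the genes with the smallest p in each direction (given here for the intercalated cell and pump lists), Malat1 and the 5 genes most like the members. Other genes, such as Car2, Car12, Slc4a9, Rhbg, Hsd11b2, Scnn1g and the marker genes, were named after their values were seen. The precision is limited by the library totals of 863605 to 3232063 counts.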

Additional observations from a re-analysis of the deposited data

Results flagged for a closer look

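Among 36 groups of values examined for a sample far from the others (members, ratios and the members' sum, in controls and in treated kidneys), 3 had one by Dixon's criterion, and chance flags about 1 in 20. Control 6 had 101 CPM of Atp6v1g3, where the nearest control had 70.7 CPM and the lowest 56.1 CPM. Control 6 also had 64.3 CPM of Atp6v0d2, where the other controls had 33.4 to 40.7 CPM. Rilmenidine 3 had a log2 ratio of Atp6v0a4 to Atp6v0a1 of 0.82, where the other treated kidneys had 0.14 to 0.21. Control 6 and rilmenidine 3 are among the 3 libraries under 10 receptor CPM, and the part of this in the 3 values was not tested.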

How the results depend on the processing

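No alternative called a member, at an adjusted p of 0.05 or, for all 10 kidneys, of 0.1. The count of genes called over the whole table, 0, was 241 (64 higher, 177 lower) when the filter was lowered to 1 count in any library, 60 with DESeq2, 44 with the likelihood ratio test and 3 with the replicate block. With single kidneys left out it was 0 to 37, above 0 without control 2 (33), control 6 (37) and rilmenidine 1 (6). For these changes the cause was not tested. Of 168 alternative values of the members' fold changes, 161 kept their direction and their side of the threshold. The 7 that changed sign were Atp6v1g3 and Atp6v0d2 with log2 Malat1 as a covariate (−0.15 and −0.10) and without rilmenidine 1 (−0.083 and −0.14; ranges with single kidneys left out −0.083 to 0.27 and −0.14 to 0.36), and Rhcg, Slc26a4 and Atp6v1b1 within the 7 libraries with at least 10 receptor CPM (0.089, 0.090 and 0.0026). Adding library size (log2) to the model changed no sign, but Slc26a4 moved to −0.073, Atp6v1b1 to −0.10 and Atp6v1c2 to 0.76 (unadjusted p = 0.0578 for Atp6v1c2 in the quasi-likelihood test).

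Of the ratios within a kidney, Atp6v1b1 to Atp6v1b2 and Atp6v1g3 to Atp6v1g1 changed sign in those 7 libraries (0.018 and 0.20). A prior count of 0.5 changed no sign. It gave 0.18 for Atp6v1c2 to Atp6v1c1 and 0.78 for Aqp6 to Slc26a4 (adjusted exact permutation p = 0.786 and 0.105). With single kidneys left out the differences ranged from −0.31 to −0.089 for Atp6v1b1 to Atp6v1b2, −0.33 to −0.11 for Atp6v0a4 to Atp6v0a1, −0.16 to 0.25 for Atp6v0d2 to Atp6v0d1, −0.061 to 0.32 for Atp6v1c2 to Atp6v1c1, −0.17 to 0.032 for Atp6v1g3 to Atp6v1g1 and −0.14 to 0.0023 for Rhcg to Slc26a4. With the replicate block, the mean of the differences between same-numbered kidneys, Atp6v1g3 to Atp6v1g1 was 0.0098 and Rhcg to Slc26a4 0.075, and the smallest p that 4 pairs allow is 0.125. The relation of Slc4a1 with the globins changed sign without 2 kidneys, to 0.485. No source ties kidneys of the same number to one litter or day, the correlations of same-numbered kidneys' deviations were −0.077 to 0.077, and the block called 0 members. The restriction of the correlations to 7 libraries was chosen after seeing the data. A filter of at least 10 counts in every library kept 6 of the members, and DESeq2 gave no adjusted p for Aqp6, Foxi1 and Atp6v1c2. Depth limits Slc4a1, Foxi1, Aqp6 and Atp6v1c2, with 2 to 41 counts per library.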

Other observations

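By the mean of the centred log2 levels of the 9 tested members, the genes outside the list with the most similar pattern over the 10 kidneys were Slc6a8, which encodes a creatine transporter (Pearson's r = 0.943), Olfm1 (0.898), Tmem52b (0.893), Aatf (0.890) and the complement gene C2 (0.884). They were picked as the highest of 10046 genes, so the values are a description and no p is given. The genes of the fixed lists were spread widely in this ranking. Of the 10 principal cell genes tested, Hsd11b2, which encodes the enzyme that inactivates corticosterone in aldosterone target cells, stood at rank 13 (r = 0.846), and the sodium channel subunit gene Scnn1g at rank 52 (r = 0.759), while the water channel genes Aqp4 and Aqp2 had r of −0.448 and −0.221. Among the other intercalated cell genes the ammonia transporter gene Rhbg stood highest, at rank 84 (r = 0.724), before the carbonic anhydrase gene Car12 at rank 112 (r = 0.699), while Kcnk5, Jag1 and Kit were below 0, with −0.267 for Kcnk5. Genes of other cells ranked alike, such as the podocyte gene Podxl at 88, Klk1 at 95 and the proximal tubule gene Slc22a8 at 100, so the likeness was not particular to intercalated cell genes. All these values share the libraries, their depth and their normalization.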
